A study of Ambystoma mexicanum with 6 samples.

Results

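The MCM helicase and origin licensing genes were followed in AL1 cells, a cultured fibroblast line of the axolotl, Ambystoma mexicanum. The 10 genes MCM2, MCM3, MCM4, MCM5, MCM6, MCM7, MCM10, CDC6, CDT1 and GMNN were taken by symbol from a count table of 99126 gene models, ignoring the endings .L and .S. These 10 symbols were carried by 13 models, and the model with the highest mean count stood for each symbol. Each of the 10 symbols also names exactly 1 gene in the RefSeq annotation of the UKY_AmexF1_1 assembly. All 10 had enough reads to be tested.

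The 3 treated libraries came from wild-type AL1 cells exposed for 24 h to etoposide at 10 µM together with nutlin-3a at 1 µM, and for a further 11 days to the same dose of nutlin-3a by itself. Etoposide damages DNA by locking topoisomerase II onto cut strands, while nutlin-3a frees p53 from its inhibitor MDM2. The 3 control libraries came from wild-type AL1 cells that received DMSO, the solvent, and were split during the 12 days to keep them below confluence. RNA was collected on day 14 from 1 cell line in both groups, and the labels do not say whether libraries of a group are separate cultures, so the p-values cover the spread from library to library only, and that spread may be technical. Drug exposure, the splitting described for the control cells and any change in division were not separated by the design and cannot be told apart. The measurement was made on bulk RNA, in which fewer dividing cells and less RNA per cell cannot be told apart either.

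Before a cell copies its DNA, each origin of replication is licensed. The origin recognition complex, CDC6 and CDT1 load the MCM2-7 proteins, a ring of related subunits, around DNA as an inactive helicase, which later joins CDC45 and the GINS complex to unwind the double helix. Geminin, the product of GMNN, binds CDT1 and prevents a second round of loading in the same cycle. These genes are known to be expressed in cycling cells and reduced in cells that have left the cycle.

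Library totals ran from 28604727 to 46686876 counts, and 3 counts, the upper limit behind a count of 0, corresponded to 0.0671 to 0.116 CPM, the count scaled to the depth of its library. Such limits cover counting error only. Depth was adjusted by TMM, edgeR's trimmed mean of log ratios between libraries, with factors of 1.10 to 1.18 in DMSO and 0.780 to 0.958 in treated libraries. The 100 highest models took 36.7% to 37.8% of counts in DMSO and 42.3% to 46.3% in treated libraries. DMSO replicate 1 had 12.1% of its counts on the mitochondrial genome, against 7.86% to 9.15% in the other 5 libraries. With library size only as the scaling, and without DMSO replicate 1, all 10 licensing genes were still called lower. The part of these differences in the results was not tested further. The fibroblast label was checked on 12 markers, of which 11 were found. Their summed level was 7244 to 7497 CPM in DMSO and 7697 to 9418 CPM in treated libraries, most of it VIM, which did not pass the test. Of the 8 tested fibroblast markers 3 fell and 0 rose: COL1A1 (−0.62 on the log2 scale), COL1A2 (−0.81) and FN1 (−1.02). Over all tested models 26.8% fell and 25.5% rose. Like VIM, COL3A1 (0.18), PDGFRB (0.17), PDGFRA (0.04) and TWIST1 (−0.03) did not pass. DCN and COL5A1 stayed at or below 3 counts in every library, and PRRX1, a marker of limb fibroblasts, averaged 0.174 and 0.292 CPM. Of the 5 blood cell markers 4 were found. They summed to 1.61 to 2.32 CPM in DMSO and 5.003 to 7.34 CPM in treated libraries, with PTPRC and SPI1 at 0 in all 6. Nearly all of this was CD68, which rose from 1.87 to 6.23 CPM (1.74), while CSF1R stayed at or below 3 counts. Epithelial markers, of which 4 of 5 were found, summed to 1294 to 1417 CPM in DMSO and 933 to 1147 CPM in treated libraries, nearly all KRT18, with EPCAM at 0. KRT18 fell (−0.40), while KRT5 rose from 0.901 to 3.34 CPM (1.87). Of the 5 muscle markers 3 were found and summed to at most 0.739 CPM, and the 4 endothelial markers to at most 0.649 CPM, with CDH5 at 0.

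All 10 licensing genes were lower in the treated cells. For each of them the 3 treated libraries lay below the 3 DMSO libraries, which was so in 31.4% of all 17424 models tested. Each passed edgeR's quasi-likelihood test at an adjusted p below 0.05, a call that 26.8% of all tested models received in the lower direction and 52.3% in either direction. The median log2 fold change was −2.34 over the 10 genes and −0.03 over all tested models. Among the 7648 tested models whose length lay within the range of the 10 genes, 1340 to 4539 bases, the median was −0.01. The smallest fall among the 10 was that of MCM6, and 3.62% of tested models fell further.

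**Figure D1:**
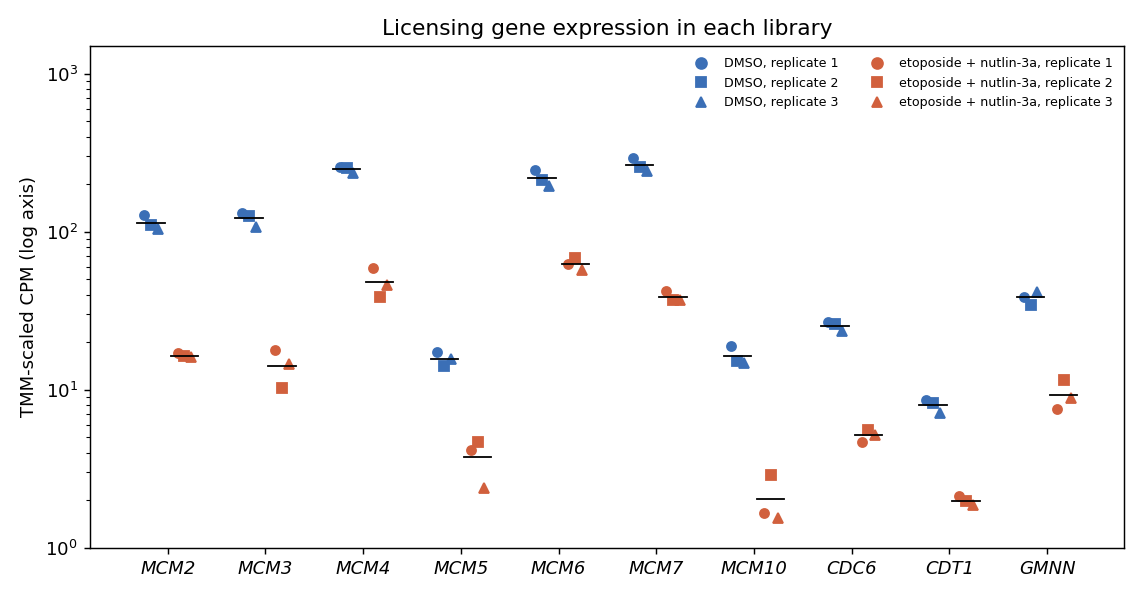
TMM-scaled CPM of the 10 licensing genes in each of the 6 libraries, on a log axis; points are libraries, marked by replicate, and bars are group means (n = 3). In every gene the 3 treated libraries sit below the 3 DMSO libraries.

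All 6 subunits of the MCM2-7 ring fell. MCM2, on chromosome 2q of AmexG_v6_DD (110272546 to 110321223, plus strand), measured 127, 110 and 104 CPM in DMSO replicates 1 to 3 and 17.01, 16.3 and 16.1 CPM in treated replicates 1 to 3. The treated libraries differed little among themselves. Its log2 change was −2.79 ± 0.12 (SE, edgeR adjusted p = 4.30e-09).

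MCM3, on chromosome 4p (184562039 to 184585185, plus strand), measured 132, 126 and 107 CPM in DMSO and 17.7, 10.2 and 14.5 CPM in treated libraries. Treated replicate 2 was the lowest of the treated libraries. The log2 change of −3.10 ± 0.18 (SE, edgeR adjusted p = 2.17e-08) was the largest fall of the 10 genes, 8.55-fold. Without treated replicate 2 it was −2.91.

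MCM4, on chromosome 5q (493692887 to 493837010, plus strand), measured 257, 252 and 235 CPM in DMSO and 58.5, 38.7 and 46.2 CPM in treated libraries. Treated replicate 2 was again the lowest. The log2 change was −2.38 ± 0.15 (SE, edgeR adjusted p = 4.22e-08).

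MCM5, on chromosome 3q (851486645 to 851512034, plus strand), had far fewer reads than the other ring subunits, with 17.4, 14.2 and 15.6 CPM in DMSO and 4.14, 4.69 and 2.40 CPM in treated libraries. The raw counts were 691, 476 and 491 in DMSO and 185, 121 and 93 in treated libraries. Treated replicate 3 was the lowest here, and without it the log2 change of −2.08 ± 0.21 (SE, edgeR adjusted p = 3.26e-06) became −1.84.

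MCM6, on chromosome 9q (688572532 to 688650749, plus strand), kept the most expression of the 10. It measured 246, 212 and 195 CPM in DMSO and 62.0, 68.2 and 57.3 CPM in treated libraries, a log2 change of −1.80 ± 0.13 (SE; by edgeR adjusted p = 1.12e-07) or 3.48-fold. Treated replicate 2, the lowest library for MCM3 and MCM4, was the highest for MCM6.

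MCM7, on chromosome 1p (185664101 to 185687912, minus strand), had the highest level in DMSO, with 291, 258 and 243 CPM, and measured 42.2, 37.0 and 37.1 CPM in treated libraries. Its log2 change of −2.77 ± 0.13 (SE, edgeR adjusted p = 4.51e-09) lay close to that of MCM2.

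MCM10 is no ring subunit; its product binds the helicase when origins fire. The model on chromosome 12p (2535060 to 2667203, plus strand) measured 18.9, 15.2 and 14.7 CPM in DMSO and 1.66, 2.87 and 1.55 CPM in treated libraries, from 74, 74 and 60 counts. The log2 change was −3.04 ± 0.22 (SE, edgeR adjusted p = 1.61e-07), 8.24-fold. Of the 10 models it was the only one to share exon bases with another model: 106 bases overlap THAP9 on the opposite strand, a model with 2793 counts over the 6 libraries. The protocol as described does not mark strand, so reads of these bases cannot be assigned to either gene.

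The loading factors also fell. CDC6, an ATPase that joins the origin recognition complex, is listed as CDC6.S on chromosome 13q (314606416 to 314619987, minus strand). It measured 26.7, 26.0 and 23.4 CPM in DMSO and 4.68, 5.55 and 5.18 CPM in treated libraries, a log2 change of −2.31 ± 0.14 (SE; by edgeR adjusted p = 3.10e-08). CDT1, which brings the MCM ring to the origin, lies on chromosome 1q (93295416 to 93320258, plus strand). It measured 8.61, 8.28 and 7.11 CPM in DMSO and 2.13, 1.98 and 1.86 CPM in treated libraries. Both groups were tight, and the log2 change was −2.01 ± 0.18 (SE, edgeR adjusted p = 9.11e-07).

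GMNN, the gene of the licensing inhibitor geminin, fell along with CDT1, the factor that geminin binds. On chromosome 5p (1073526117 to 1073531203, plus strand), it measured 38.9, 34.6 and 41.8 CPM in DMSO and 7.52, 11.5 and 8.92 CPM in treated libraries. Its log2 change of −2.05 ± 0.16 (SE, edgeR adjusted p = 2.44e-07) was close to that of CDT1. The ratio of CDT1 to GMNN per length left out the second CDT1 model described below. It was 0.108, 0.117 and 0.0832 in DMSO and 0.138, 0.0841 and 0.102 in treated libraries. The groups overlapped in this ratio, which was chosen after the values were seen (0.103 ± 0.0176 and 0.108 ± 0.0277, SD, n = 3). An exact two-sided permutation test on the log2 of the ratio gave p = 0.9, where 0.1 is the smallest possible.

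**Figure D2:**
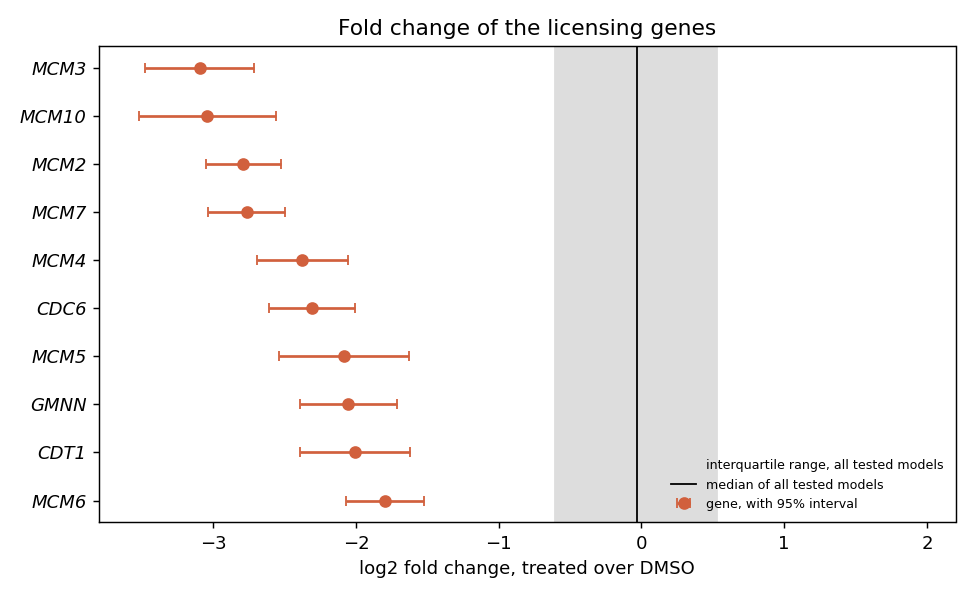
Log2 fold change of treated over DMSO for each licensing gene, with its 95% interval from the edgeR fit; the grey band spans the interquartile range of all tested models and the line is their median (−0.03). All 10 intervals lie below the band. The interval of MCM6 (−2.07 to −1.53), the smallest fall, does not reach that of MCM3 (−3.48 to −2.71), the largest. Both genes were picked by their values, so this is no test of a difference between them.

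Levels were compared between genes as CPM per kb of model length. In DMSO the order was MCM7 with 81.7 ± 7.64, MCM4 with 54.7 ± 2.56, MCM6 with 51.3 ± 6.06, MCM3 with 34.0 ± 3.61, GMNN with 28.7 ± 2.701 and MCM2 with 28.0 ± 2.92 CPM per kb (SD, n = 3). The lower part of the order was CDC6 with 8.30 to 9.48, MCM10 with 4.37 ± 0.622, MCM5 with 4.14 ± 0.418 and CDT1 with 2.92 ± 0.289 CPM per kb. The neighbours MCM4 and MCM6, MCM3 and GMNN, GMNN and MCM2, and MCM10 and MCM5 overlapped in their libraries. Within the ring the highest gene exceeded the lowest 19.8 ± 1.47-fold in a DMSO library, and 2.92 ± 0.0333-fold when MCM5 was left out.

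In treated cells MCM6 was at the top of the order, with 14.8 ± 1.29 CPM per kb, above MCM7 with 12.0 ± 0.923, and the libraries of these neighbours did not overlap. MCM4 followed with 10.5 ± 2.202, GMNN with 6.96 ± 1.51, MCM2 with 4.04 ± 0.123 and MCM3 with 3.95 ± 1.05 CPM per kb. At the bottom were CDC6 with 1.82 ± 0.155, MCM5 with 0.985 ± 0.315, CDT1 with 0.726 ± 0.0494 and MCM10 with 0.545 ± 0.198 CPM per kb. The neighbours MCM7 and MCM4, MCM2 and MCM3, and MCM5 and CDT1 overlapped in their libraries. MCM10 was in the last place after treatment and in the eighth in DMSO, although its libraries overlapped those of CDT1. The ring spanned 16.0 ± 4.75-fold in a treated library, and 4.19 ± 1.26-fold when MCM5 was left out. A level per length depends on how well a gene model matches its transcripts, which was not tested.

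**Figure D3:**
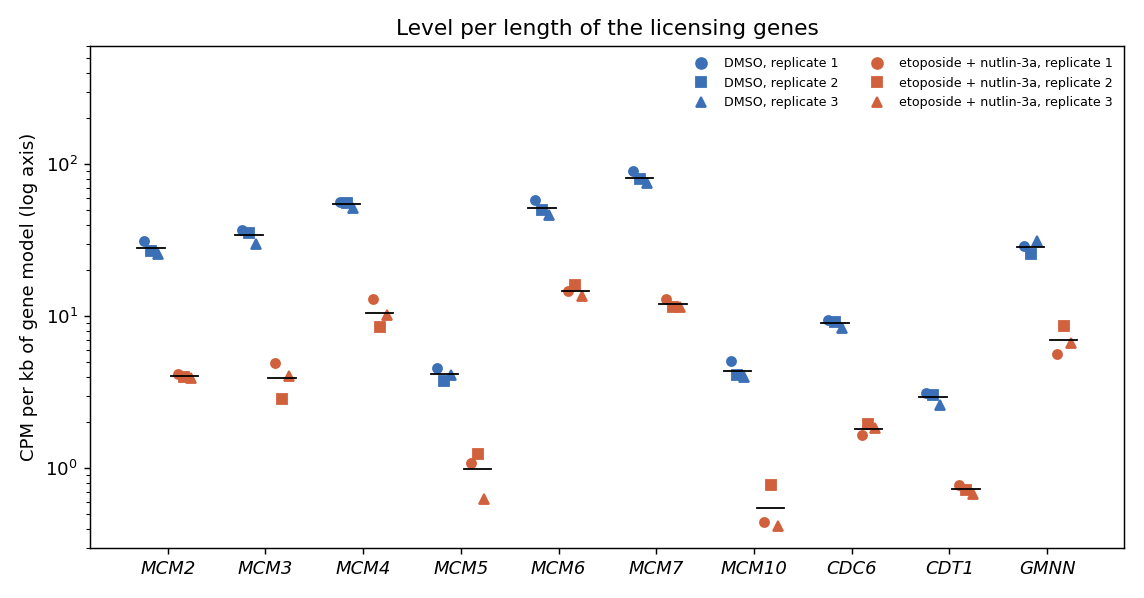
Level of each licensing gene as TMM-scaled CPM per kb of gene model, on a log axis, in the 6 libraries; bars are group means (n = 3). MCM5 sits at 4.14 CPM per kb in DMSO, below the 28.0 to 81.7 CPM per kb of the other ring subunits.

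To see whether the genes fell by unequal amounts, each was expressed as a log2 ratio to the mean of the MCM2-7 ring genes in the same library, leaving out the gene itself where it belongs to the ring. MCM6 stood higher relative to the other ring genes after treatment, with 1.02 ± 0.0527 in DMSO and 1.86 ± 0.215 in treated libraries (SD, n = 3), a difference of 0.84. MCM3 stood lower, with 0.01 ± 0.0942 in DMSO and −0.75 ± 0.400 after treatment, and its treated libraries were at −0.52, −1.21 and −0.51. Smaller differences were found for MCM2, with −0.10 and −0.45, and MCM7, with 1.35 and 1.03. The ratios of the ring genes in a library cancel by construction. A shift of any ring gene therefore moves the others the opposite way, and these shifts are not independent. CDT1 was at −3.92 ± 0.0723 in DMSO and −3.41 ± 0.0665 after treatment. In these 5 genes the groups did not overlap, and the exact two-sided permutation test gave p = 0.1 for each, the smallest value that 3 against 3 libraries allow. No ratio could therefore pass the 0.05 threshold, with or without adjustment over the 10 genes. How often all tested models separate in such a ratio was not tested, so the 5 genes are a description only.

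The other 5 ratios overlapped between the groups. MCM4 differed by 0.12 (exact permutation p = 0.5), MCM5 by 0.46 (exact permutation p = 0.3), CDC6 by 0.20 (exact permutation p = 0.4) and GMNN by 0.44 (exact permutation p = 0.2). MCM10 differed by −0.54 (exact permutation p = 0.3), and its treated libraries were spread from −3.85 to −2.84. Set against PCNA, the sliding clamp of the replication fork, all 10 genes had lower log2 ratios in treated libraries. The differences ran from −0.52 for MCM6 to −1.85 for MCM3 (exact permutation p = 0.1 for each gene, again the smallest possible value). Lower ratios follow from the fold changes, since PCNA fell by less than any of the 10. How often all tested models separate in a ratio to PCNA was not tested, so these ratios are a description only. PCNA itself had a log2 change of −1.27 ± 0.14 (SE; by edgeR adjusted p = 5.37e-06).

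**Figure D4:**
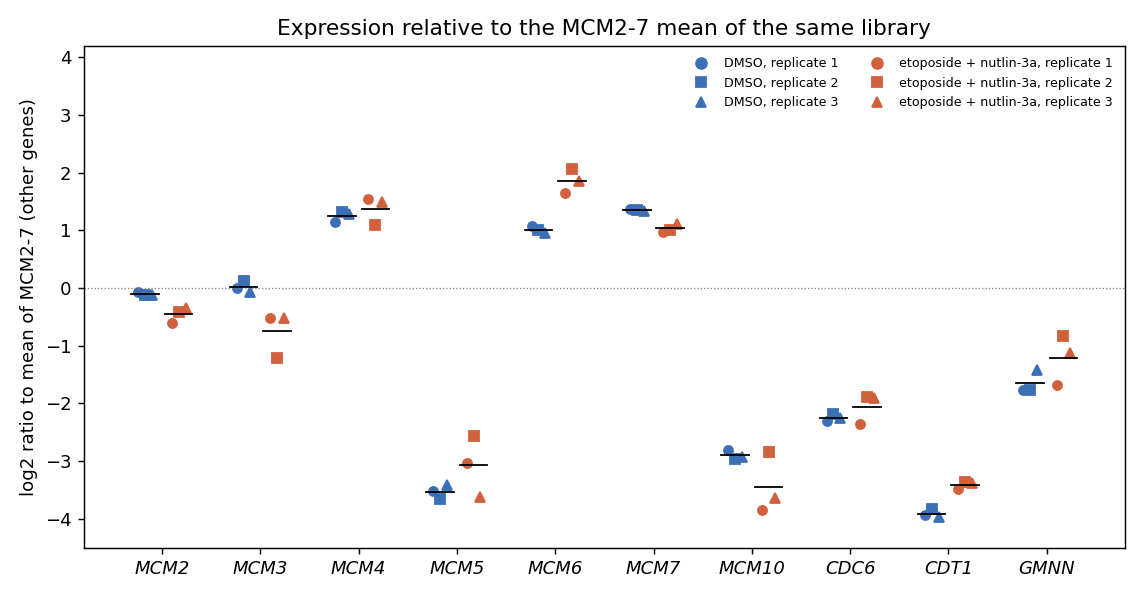
Log2 ratio of each licensing gene to the mean of the MCM2-7 genes of the same library (for a ring gene, of the other ring genes); points are libraries and bars are group means (n = 3). MCM6 stands higher and MCM3 lower in all 3 treated libraries than in DMSO, while MCM4, MCM5, MCM10, CDC6 and GMNN overlap.

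DMSO replicate 1 was the highest DMSO library for 9 of the 10 genes, with GMNN the exception, and DMSO replicate 3 was the lowest for 8. Among treated libraries, replicates 1 and 2 were each the highest for 5 genes, and replicate 3 was the lowest for 5.

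The symbols MCM6, MCM7 and CDT1 each had a second model. The second CDT1 model, a single exon on chromosome 8q (414884005 to 414886618, plus strand), gave counts of 209, 154 and 115 under DMSO and of 43, 26 and 46 after treatment, a log2 change of −2.10 ± 0.23 (SE; by edgeR adjusted p = 5.51e-06). This is close to the value of the first CDT1 model. Its level in DMSO was 1.72 ± 0.310 CPM per kb, against 2.92 ± 0.289 CPM per kb for the first model. The levels of both models added together exceed the DMSO means of MCM5 and MCM10 per kb. Such a sum treats the models as separate transcripts and adds no other model to MCM5. Whether the last place of CDT1 in the DMSO order depends on the choice of 1 model per symbol was not tested. The second MCM7 model, 515 bases on chromosome 5p, gave 44, 26 and 14 counts under DMSO and 10, 0 and 8 after treatment. A model of 812 bases that the table describes as MCM5-like, looked up after the low MCM5 level was seen, gave 31, 27 and 30 counts under DMSO and 4, 4 and 3 after treatment.

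The genes around licensing did not all follow it. Of 53 symbols in 6 lists on origin recognition, origin firing, MCM partners, geminin relatives, control of licensing and the E2F and RB families, 44 were found and 41 tested. Their counts are read beside the shares of all tested models that fell, 26.8%, and that rose, 25.5%. Origin recognition was divided: of 6 tested genes 3 fell, 1 rose and 2 did not pass, with a median log2 fold change of −0.65. ORC1, an ATPase and the largest subunit, measured 8.76, 10.2 and 8.44 CPM in DMSO and 1.23, 1.71 and 1.75 CPM in treated libraries, a log2 change of −2.56 ± 0.20 (SE; by edgeR adjusted p = 2.55e-07). A second ORC1 model, on an unplaced contig, had −2.72 (edgeR adjusted p = 5.87e-07). ORC6, the smallest subunit, fell by 2.33 and LRWD1, a protein that binds the complex, by 1.13 on the log2 scale. ORC4, another core subunit, rose from 46.8 ± 2.37 to 68.9 ± 7.17 CPM (0.56 on the log2 scale, edgeR adjusted p = 0.00118), a call lost with library size only (0.18). The 2 genes that did not pass, named after their values were seen, were ORC2 (0.16, edgeR adjusted p = 0.220; −0.21 with library size only) and ORC5 (−0.17, edgeR adjusted p = 0.288; −0.52 and called with library size only).

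All 11 tested genes of origin firing and of the active helicase were lower, with a median of −1.20, against 26.8% of all tested models. DONSON, which helps to deliver GINS to the MCM ring, measured 25.7, 26.4 and 24.3 CPM in DMSO and 7.77, 4.23 and 6.14 CPM in treated libraries, a log2 change of −2.06 ± 0.18 (SE; by edgeR adjusted p = 9.25e-07). DBF4, the activator of the kinase CDC7 that phosphorylates the MCM ring, fell from 4.82 ± 0.110 to 1.37 ± 0.367 CPM (−1.83). TOPBP1, a scaffold of origin firing, measured 20.5, 10.7 and 8.76 CPM in DMSO, so 1 library stood apart, and 4.14, 4.15 and 4.69 CPM in treated libraries. Its log2 fold change was −1.62, and −1.17 without DMSO replicate 1. GINS1, singled out after its value was seen, had the weakest fall of the 11 (−0.41, edgeR adjusted p = 0.0321), and its call was lost when DMSO replicate 2, DMSO replicate 3, treated replicate 1 or treated replicate 3 was left out, with RLE or upper-quartile scaling, and with DESeq2. In the fold changes of this list the largest fall lay between those of GMNN and MCM5 among the licensing genes.

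MCMBP, a protein that binds MCM subunits outside the loaded ring, fell from 110 ± 4.13 to 40.0 ± 8.60 CPM (−1.45 ± 0.15 on the log2 scale, SE; edgeR adjusted p = 2.99e-06). KAT7, a histone acetyltransferase that works with CDT1 at origins, fell from 10.8 ± 1.75 to 4.75 ± 0.921 CPM (−1.17). The geminin relatives GMNC and MCIDAS, known from cells with many cilia, had too few reads to be tested, with at most 0.538 CPM in any library.

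Of 9 tested genes that control licensing through the cell cycle, 6 fell, 1 rose and 2 did not pass, with a median of −0.77. Over all tested models 26.8% fell and 25.5% rose. CCNA2, the cyclin A2 gene, fell by 3.10 on the log2 scale, as far as MCM3. DTL, the ubiquitin ligase adaptor that marks CDT1 for destruction in S phase, measured 10.7, 10.6 and 9.20 CPM in DMSO and 2.26, 1.44 and 1.21 CPM in treated libraries (log2 change −2.62, SE 0.22, edgeR adjusted p = 6.25e-07). SKP2, an F-box protein that also targets CDT1, fell from 8.06 ± 0.455 to 2.16 ± 0.360 CPM (−1.89). CCNE2, a cyclin of the G1 to S transition, was the exception that rose (1.32, edgeR adjusted p = 1.22e-06). CUL4A and CUL4B, the cullin scaffolds of the ligase that DTL serves, did not pass the test (0.09 and 0.07, edgeR adjusted p = 0.670 and 0.813) and were named after their values were seen. The other genes of this list that fell were CDK1 (−1.42), DDB1 (−0.77) and FZR1 (−0.52), also named after their values were seen.

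In the E2F and RB families, transcription factors and their partners that regulate many replication genes in animals, 8 of 13 tested genes fell, 1 rose and 4 did not pass, with a median of −0.93. E2F7 and E2F8, both known as repressors, fell by 2.49 and 1.99 on the log2 scale. Also lower, and named after their values were seen, were E2F1 (−1.06), E2F3 (−1.20), E2F6 (−0.70), TFDP1 (−0.98) and LIN54 (−0.93). E2F7 was at 3.25, 1.94 and 2.06 CPM in DMSO and 0.291, 0.543 and 0.490 CPM in treated libraries. LIN9 and LIN52 are subunits of the MuvB complex, which joins repressing and activating partners in turn. LIN9 fell from 24.5 ± 2.54 to 9.49 ± 1.47 CPM (−1.36), whereas LIN52 rose from 29.1 ± 0.913 to 37.1 ± 0.744 CPM (0.35, edgeR adjusted p = 0.0149). The LIN52 call was lost without DMSO replicate 2 (0.37), DMSO replicate 3 (0.33) or treated replicate 3 (0.33), without the low-count filter, and with library size only (−0.018). The 4 genes that did not pass, named after their values were seen, were E2F4 (−0.21), TFDP2 (−0.37), RBL2 (−0.01) and LIN37 (−0.21).

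**Figure D5:**
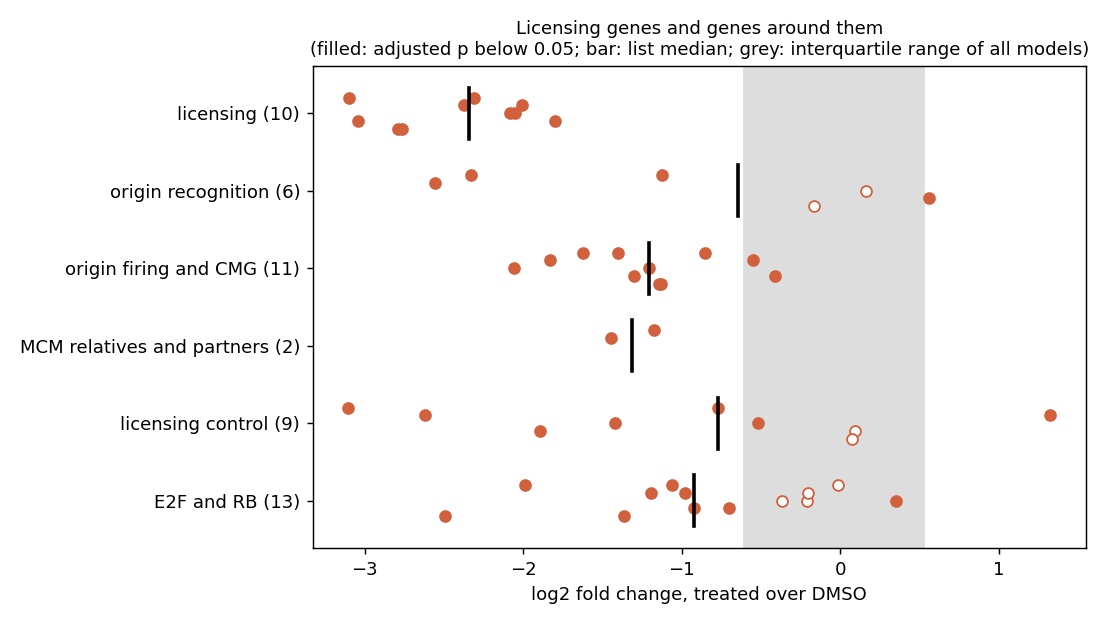
Log2 fold change of treated over DMSO for the licensing genes and the 5 lists with tested members (number tested in brackets); each point is a gene, filled when edgeR's adjusted p was below 0.05, with the list median as a bar and the interquartile range of all tested models in grey. The licensing genes lie between −3.10 and −1.80, while every other list but the 2 MCM partners reaches into the grey band.

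The models whose profile was most like the MCM2-7 ring were sought among 6759 named models with a mean of at least 5 CPM, by the Euclidean distance between centred log2 CPM over the 6 libraries. The 5 nearest were LMNB2, the lamin B2 gene, at a distance of 0.178, SRSF2, a splicing factor gene, at 0.255, IER5L at 0.269, NCAPD3, a condensin II subunit gene, at 0.276, and FOXM1, a transcription factor gene of the cell cycle, at 0.276. Their log2 fold changes were −2.71, −2.46, −2.71, −2.80 and −2.77. By the same measure MCM7, MCM4 and MCM2 lay at 0.267, 0.312 and 0.332 from the ring's median profile, of which they are part. The other ring genes MCM3, MCM5 and MCM6 lay further away, at 0.738, 0.962 and 1.03. With 6 libraries in 2 groups, this distance reflects mostly the size of the difference between the groups.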

How the data were processed

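RNA of 6 AL1 samples was sequenced from poly(A)-primed, PCR-amplified cDNA (modified Smart-seq2, 1000 ng input, paired reads of 100 bp), per the labels' protocols. The deposited table gives raw read counts for each gene model, without normalization; model lengths are in bases, per the file headers. The submitters' processing notes name bcl2fastq 2.20.0, STAR 2.7.7a and featureCounts 2.0.1; the strand setting and the handling of multi-mapped reads, not given in the sources used here, could change low counts. Coordinates are of AmexG_v6_DD, the build in the table's name. The 92 spike-in rows, all 0, were left out.

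Counts were tested with edgeR 4.0.16 in R 4.3.3: filterByExpr (17424 models kept), TMM, a quasi-likelihood F-test with robust dispersions, two-sided, and Benjamini-Hochberg adjustment over all models tested. CPM values are TMM-scaled, and SEs come from the F statistic. The 95% intervals use the same SE. Ratios to the ring and to PCNA had a prior count of 0.5, and the ratio of CDT1 to GMNN had no prior count. The fit was also tried on simulated counts with few models changed, in both directions. In these data 52.3% of tested models were called, so the simulation does not check the scaling here. Replicate pairs differed by 5.63 to 68.8 chi-square units per degree of freedom, so none agreed within sampling noise.

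The members and lists were chosen with earlier results of these data known. Named genes are all members, up to 3 called genes per list with the largest change and any called gene moving against its list, and the 5 models most like the ring. Symbols without a model in the table (ORC3, CDC7, MCM8, MCM9, CDK2, CCNE1, E2F2, RB1, RBL1) were not analysed here. Promoter and protein sequences were not used here. Other settings tried were 3 scalings, 2 filters, DESeq2 1.42.0, a fit that was not robust, models of a symbol summed, and each library left out. A further list of cell type markers is not reported here.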

Additional observations from a re-analysis of the deposited data

Results flagged for a closer look

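The second MCM6 model, on chromosome 5p, stood outside the measurement and held 5 counts in treated replicate 1, above the 0 counts of the 3 DMSO libraries. It had 0 counts in the other treated libraries and was too low to be tested.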

How the results depend on the processing

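Each of the 10 licensing genes kept its direction and its call under all 14 other settings, and all 10 were called lower in each. The median of the 10 was −2.25 with upper-quartile scaling and −2.71 with library size only, a scaling that moved the median of all models by −0.37; with library size only 7029 models were called lower and 2314 higher. Origin recognition had a median of −0.56 with upper-quartile scaling. With library size only the list medians were −1.01 for origin recognition, −1.58 for origin firing, −1.67 for MCM partners, −1.14 for licensing control and −1.30 for E2F and RB genes, and 0 genes of origin recognition and 0 of E2F and RB rose. No E2F and RB gene rose (0) without the low-count filter. With all models of a symbol summed, the licensing control median was −0.93. Leaving out 1 library gave medians from −1.32 to −1.13 for origin firing and from −0.89 to −0.67 for licensing control, and 0 or 1 E2F and RB genes that rose. The cause of these shifts was not tested. LIN52 had −0.018 and ORC2 −0.21 with library size only. With PCNA as the reference the ratios changed sign for MCM4 (−1.12), MCM5 (−0.84), MCM6 (−0.52), CDC6 (−1.02), CDT1 (−0.72) and GMNN (−0.78), since PCNA fell by less than any of the 10. Ratios to the ring kept their sign with a prior count of 2, with models summed and with each library left out, where MCM6 ran from 0.74 to 0.95 and MCM3 from −0.88 to −0.53, and the overlapping ratios more widely: MCM4 from 0.040 to 0.26, MCM5 from 0.20 to 0.73, MCM10 from −0.85 to −0.34, CDC6 from 0.12 to 0.35 and GMNN from 0.25 to 0.67. Without division by length the highest member exceeded the lowest 33.1-fold in DMSO and 36.3-fold in treated libraries, against 28.0-fold and 29.2-fold per length. Geminin relatives were tested only under some settings and are given no value. No paired analysis was possible because the labels give no replicate numbers. The replicate numbers used here follow the order of the samples within each group. MCM5, MCM10 and CDT1 had the fewest counts of the 10 in treated libraries, 51 to 185, and so the largest counting error.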
